A study of Homo sapiens with 6 samples.

Results

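In the human liver cancer cell line HepG2, 212 regions carried a peak of ENO1 and of HDAC1 in both replicates but no reproducible peak of H4K12la, histone H4 lactylated at lysine 12. They were chosen from the peak calls alone. The peaks of 6 CUT&Tag libraries were merged wherever they shared at least 1 bp. A merged region was kept when both ENO1 lists and both HDAC1 lists contributed a peak and at most 1 of the 2 H4K12la lists did. The 212 regions are part of 13626 merged regions on the 24 chromosomes. They make up 33.1% of the 640 regions with peaks in both ENO1 and both HDAC1 lists, and the other 428 had peaks in all 6 lists. Without ENO1 replicate 2 the rule would give 364 regions, and without H4K12la replicate 1, where the other H4K12la list alone must lack a peak, 140.

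CUT&Tag uses an antibody to bring a tagging enzyme to a protein or histone mark, and the DNA it cuts nearby is sequenced, so a peak is a place where such fragments pile up. The 3 groups were HepG2 cells probed with an antibody to ENO1, to HDAC1 or to H4K12la, with 2 replicate libraries each. The labels give no treatment or genetic change for any group and leave unsaid whether the replicates are separate cultures, so their spread may be technical. ENO1 is enolase 1, an enzyme of glycolysis, the pathway whose end product can be turned into lactate. HDAC1 is a class I histone deacetylase that works in nuclear repressor complexes, and enzymes of this class have been described as removing lactyl groups from histones as well as acetyl groups. Lactylation is a histone mark tied to lactate in the cell. By its title, the series is about ENO1 and HDAC1 acting together on histone lactylation. The regions described here are those where both proteins were called in both replicates and H4K12la in at most 1.

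Peak lists carry no read totals, so the depth of the libraries is unknown, and signal too weak to be called would not show. ENO1 had 1592 peaks in replicate 1 and 1189 in replicate 2 over the 24 chromosomes, the HDAC1 lists had 5727 and 4567, and the H4K12la lists 5459 and 7568. The 212 regions used 13.7% and 17.9% of the ENO1 peaks, but 3.72% and 4.69% of the HDAC1 peaks. No control library was analysed here. Occupancy shared by ENO1 and HDAC1 and sequence that any antibody recovers therefore cannot be told apart.

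One region reached a promoter window, taken as 250 bases before to 50 bases after an annotated start. The sequence of this window is shown because it is the only one of 35116 RefSeq windows that these regions reach. The windows do not cover every gene, so other promoters may be reached unseen. By these windows, 1 region is 0.472% of the 212, against 29.8% of all merged regions and 0.701% of the regions in all 6 lists. The share was 43.2% in HDAC1 regions lacking reproducible ENO1 and H4K12la, and 0% in ENO1 regions without reproducible HDAC1. Region chr22:21326166-21326688 covers 102 of the 300 bases of the window of FAM230H, a long noncoding RNA gene on the minus strand (window chr22:21326587-21326886, start site at 21326636). The sequence is from RefSeq (GRCh38 patch 14), written 5′ to 3′ on the minus strand, with the bases under the region in capitals.
FAM230H: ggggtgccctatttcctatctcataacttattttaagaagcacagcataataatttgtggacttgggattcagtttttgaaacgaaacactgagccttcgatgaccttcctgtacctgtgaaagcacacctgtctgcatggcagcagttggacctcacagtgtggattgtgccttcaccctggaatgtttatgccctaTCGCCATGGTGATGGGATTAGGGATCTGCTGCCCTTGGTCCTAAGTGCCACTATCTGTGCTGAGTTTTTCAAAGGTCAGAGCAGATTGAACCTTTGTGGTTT
The window holds 46.0% G and C, against a median of 58.7% over 35116 RefSeq windows of that length, and 22.6% of those windows had less. The covered bases hold 48.0% and the rest 44.9%. Across this region ENO1 reached 9.05-fold in replicate 1 and 8.20-fold in replicate 2, HDAC1 9.78-fold and 11.4-fold, and H4K12la 7.01-fold in replicate 2 only. Fold here and below is the peak caller's enrichment of a peak over its background within 1 library. It is the authors' value, used within a list, and the peak of highest fold stands for each list in a region.

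The regions lay mostly far from protein-coding genes. The nearest protein-coding gene was more than 50 kb away for 166 of the 212 (78.3%, Wilson 95% interval 72.3 to 83.3), against 21.5% of all merged regions. The median distance to the nearest protein-coding gene was 894 kb, with quartiles of 85.5 kb and 1659 kb, and 47.6% (41.0 to 54.3) lay over 1 Mb away, against 33.6% of the regions in all 6 lists (29.3 to 38.2), 48.4% of the ENO1 regions without reproducible HDAC1 (39.95 to 57.0) and 9.80% of all merged regions. The gene table places genes that X and Y share, such as SHOX, on X alone, so distances on Y are too long where such genes lie. Without Y, in 189 regions, the median was 682 kb, 75.7% lay over 50 kb away and 41.8% (35.0 to 48.9) over 1 Mb, against 28.1% of those in all 6 lists (23.9 to 32.7) and 45.2% of the ENO1 regions without reproducible HDAC1 (36.4 to 54.3). Regions with peaks in all 6 lists lay over 50 kb away in 72.9% of 428 cases (68.5 to 76.9), and ENO1 regions without reproducible HDAC1 in 71.9% of 128 cases (63.5 to 78.9). HDAC1 regions lacking reproducible ENO1 and H4K12la did so in 21.9% of 1626 cases (19.95 to 23.97). The interval of the 212 regions thus overlapped those of both other sets with ENO1 and lay above that of the HDAC1 regions. No test was made, since regions of the same libraries are not replicates. Neighbouring regions are not independent either: with each cluster counted once, a choice made with the values in view, 60.2% of 88 lay over 50 kb away.

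**Figure D1:**
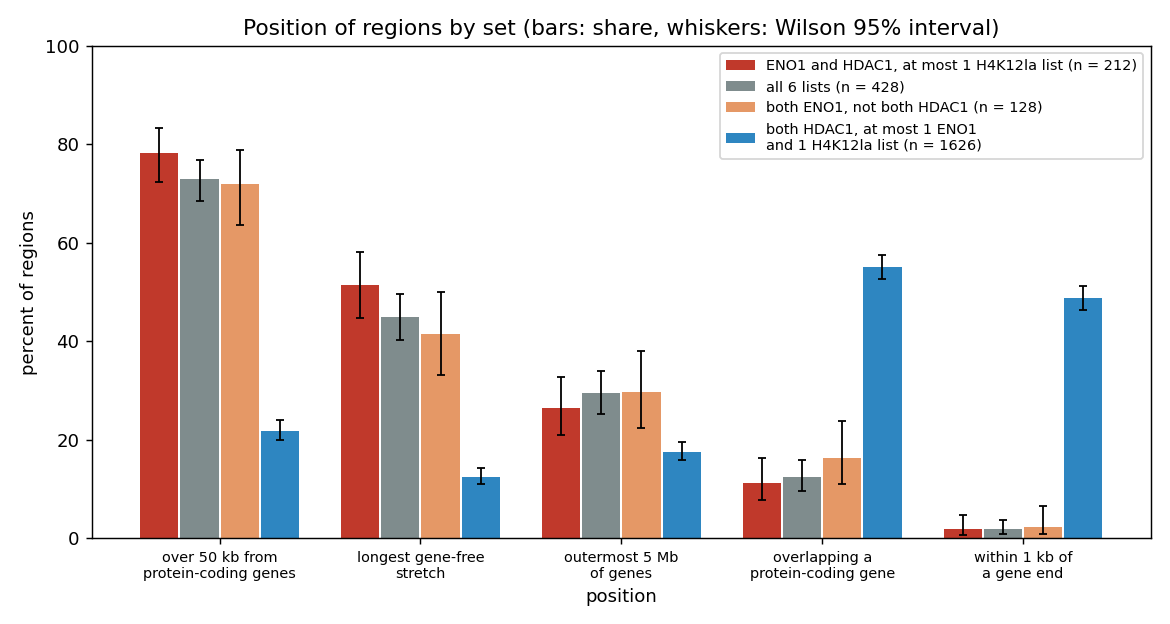
Percent of regions (bars, with Wilson 95% intervals as whiskers) by position for 4 sets of regions. The 212 regions with ENO1 and HDAC1 but at most 1 H4K12la list stand at 78.3% over 50 kb from protein-coding genes and 1.89% at gene ends, while the 1626 HDAC1 regions stand at 21.9% and 48.9%. Regions in all 6 lists stand at 72.9% and 1.87%, and ENO1 regions without reproducible HDAC1 at 71.9% and 2.34%.

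**Figure D2:**
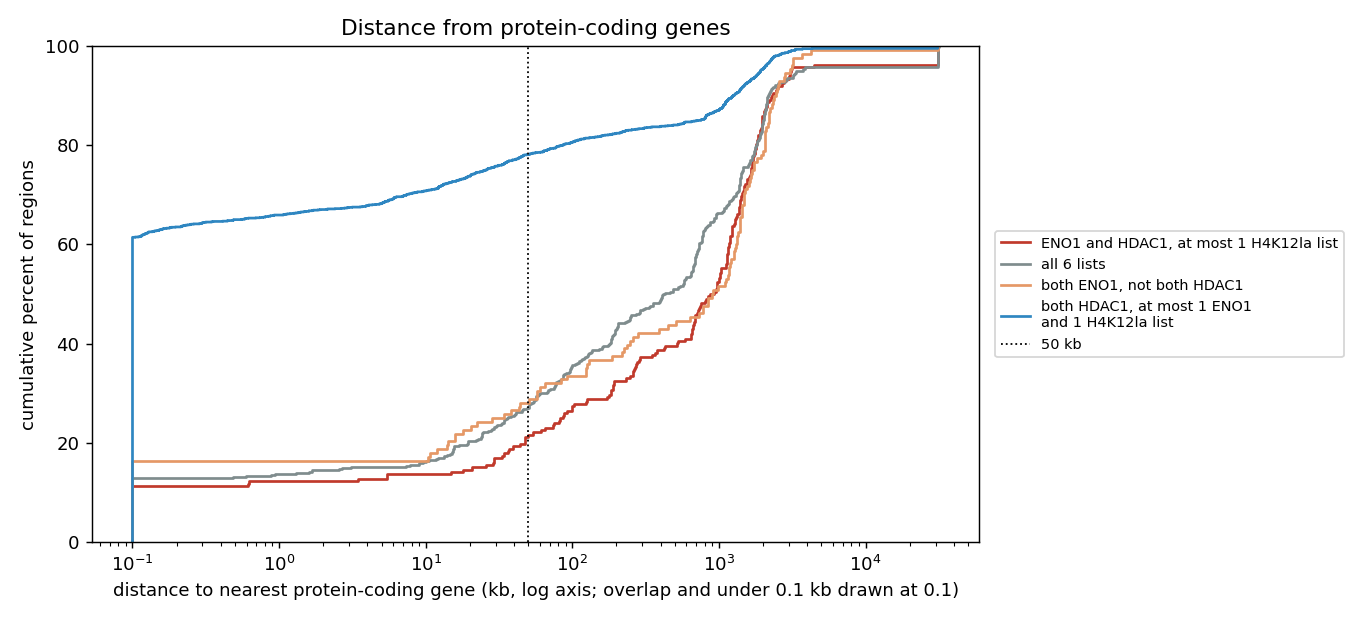
Cumulative percent of regions by distance to the nearest protein-coding gene in kb, on a log axis, with 50 kb dotted. The 3 sets with ENO1 in both lists run low up to 50 kb, while the HDAC1 set starts high, since 55.2% of it overlaps a gene. The steps at the far right are regions of Y, whose distances are too long.

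Gene-poor stretches of the chromosomes held 109 of the regions, most of them in a few clusters. The longest stretch without protein-coding genes was taken for each chromosome, and on several, chromosome 1 among them, it spans the centromere, the site of large arrays of satellite repeats. These stretches make up 4.69% of the length between the outermost genes. They held 51.4% of the 212 regions (44.7 to 58.1), against 10.1% of all merged regions, 44.9% of the regions in all 6 lists (40.2 to 49.6) and 41.4% of the ENO1 regions without reproducible HDAC1 (33.2 to 50.1). Counted by cluster (neighbours within 1 Mb), 21 of 88 clusters (23.9%) lay in such a stretch. The 109 fell on 14 chromosomes. Chromosome 1 had 21 of them, between LINC02798, which the gene table classes as protein-coding, and the histone gene H3-7. The Y chromosome had 14, between TSPY10, of a testis-expressed gene family, and USP9Y, a ubiquitin protease gene. Chromosome 5 had 13, in the stretch that ends at EMB, which encodes the membrane protein embigin. Chromosomes 10 and 19 had 12 each, bounded by zinc finger genes (ZNF37A and ZNF33B) and by ZNF254 and UQCRFS1, the latter a subunit of respiratory complex III. No repeat annotation was used here, so whether reads in these stretches had a unique place was not tested.

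The zone within 5 Mb of the outermost annotated genes, chosen after the data were seen, held 56 of the regions (26.4%, 20.9 to 32.7), against 15.2% of all merged regions and 29.4% of those in all 6 lists. Of the 56, 18 lay on the gene-poor start of chromosomes 13, 14, 15, 21 and 22 or at the end of the Y long arm. The other 38 were spread over 17 chromosomes, and 11 of these lay in a protein-coding gene.

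By chromosome the regions were unevenly spread. Chromosome 1 held 30, Y 23, chromosome 5 20, chromosome 19 18 and chromosome 10 17, while chromosome 18 held none. Of all regions with ENO1 and HDAC1 in both replicates, the share without reproducible H4K12la was 33.1%. It was 48.6% on chromosome 19 (18 of 37, Wilson 95% interval 33.4 to 64.1), 41.1% on Y (23 of 56, 29.2 to 54.1), 23.6% on chromosome 10 (17 of 72, 15.3 to 34.6) and 15.6% on chromosome 17 (5 of 32, 6.86 to 31.8). On chromosome 8 it was 57.1% (12 of 21, 36.5 to 75.5). The intervals of chromosomes 8 and 19 lie above 33.1% and that of chromosome 17 below it, among 24 chromosomes viewed without a test. These intervals cover counting error only, and neighbouring regions are not independent. On chromosome 19, 1 cluster holds 12 of the 18, and on chromosome 8 clusters of 5 and 4 lie among the 12.

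**Figure D3:**
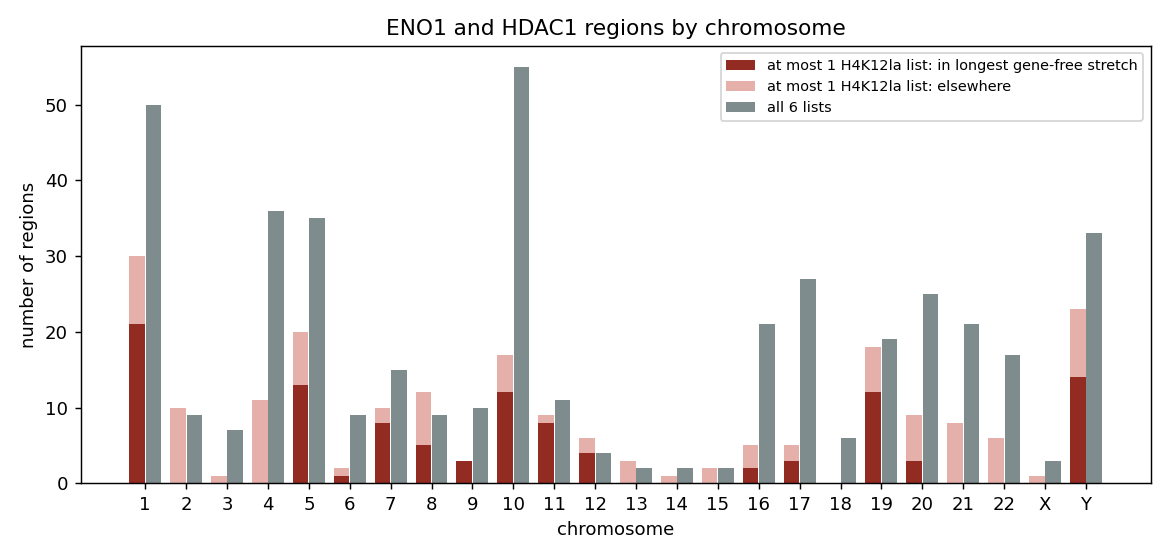
Number of regions with ENO1 and HDAC1 in both replicates on each chromosome. The left bar holds regions with at most 1 H4K12la list, dark where they lie in that chromosome's longest stretch without protein-coding genes (21 of 30 on chromosome 1), and the right bar those in all 6 lists.

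Clusters held most of the regions, though a smaller share than in denser sets. Joined where neighbours lay within 1 Mb, they formed 88 clusters, of which 56 were single regions and 32 held the other 156 (73.6%, 67.3 to 79.1). Joined in the same way, 82.5% of the regions in all 6 lists, 83.1% of the HDAC1 regions, 64.8% of the ENO1 regions without reproducible HDAC1 and 99.2% of all merged regions lay in clusters. Sets with more regions have nearer neighbours, and the part of set size in these shares was not tested. The 5 largest held 65 regions (30.7%). The largest, chr1:122591681-124615512, had 16 regions at a median of 2015 kb from a protein-coding gene. ENO1 there ranged from 5.34-fold to 15.1-fold in replicate 1 (median 7.50) and from 4.63-fold to 11.1-fold in replicate 2 (median 7.42), and HDAC1 from 5.25-fold to 16.1-fold (median 7.90) and from 5.11-fold to 18.1-fold (median 8.57). Of the 16, 10 had an H4K12la peak in replicate 1 only, 2 in replicate 2 only and 4 in neither. The same span held 11 regions with peaks in all 6 lists.

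The Y cluster, chr Y 10686524 to 11690601, had 14 regions beside 13 in all 6 lists, and its folds were lower, with medians of 6.43 and 5.17 for ENO1 and 5.25 and 5.28 for HDAC1 in replicates 1 and 2. On chromosome 5 (47359413 to 49646298), 13 regions lay beside 25 in all 6 lists, with medians of 7.77 and 7.15 for ENO1 and 7.46 and 7.36 for HDAC1. The chromosome 19 cluster (25248028 to 26860586) had 12 regions beside 8 in all 6 lists, with medians of 8.20 and 8.03 for ENO1 and 9.36 and 8.44 for HDAC1. These spans run from the first to the last of the regions, so their counts favour them. Over the whole gene-free stretch the counts were 21 beside 31 in all 6 lists on chromosome 1, 12 beside 17 on chromosome 19 and 14 beside 14 on Y. On chromosome 10 (39986228 to 41915116), 10 regions lay among 37 in all 6 lists, with a median of 7.95 for ENO1 in replicate 1 and of 8.10 and 6.42 for HDAC1.

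Regions with and without reproducible H4K12la were neighbours in many places. A region in all 6 lists lay within 100 kb of 114 of the 212 regions (53.8%), at a median of 77.5 kb, and within 1 kb of 11. Of the 73 regions with no H4K12la peak at all, 46 (63.0%) had an H4K12la peak of some library within 100 kb, 18 within 10 kb and 5 within 1 kb. These shares were not computed for other sets of regions. Whether they differ from what the density of peaks alone would give was not tested.

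The strongest regions reached more than 10-fold for both proteins in both replicates. The highest, chr17:25569126-25569748, lay 1724 kb from WSB1, which encodes a ubiquitin ligase adaptor, and had no H4K12la peak. In replicates 1 and 2, ENO1 reached 17.6-fold and 15.9-fold, and HDAC1 reached 20.5-fold and 22.7-fold. Next came chr16:34085147-34085573, 266 kb from CCNYL1B. ENO1 stood at 16.4-fold and 15.7-fold in this region, HDAC1 at 17.7-fold and 18.5-fold, and H4K12la at 15.2-fold in replicate 1 only. The chromosome 17 region was thus the higher of the pair in each of the 4 ENO1 and HDAC1 lists.

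On chromosome 19, 3 of the 10 strongest regions lay in the gene-free stretch beyond ZNF254, a zinc finger gene. The first (25248028 to 25248425) had ENO1 at 18.3-fold and 13.9-fold, HDAC1 at 14.2-fold and 15.3-fold, and H4K12la at 12.8-fold in replicate 2. The second (26097574 to 26097965) had 12.1-fold and 11.7-fold of ENO1, 12.1-fold and 15.1-fold of HDAC1, and 10.1-fold of H4K12la in replicate 2. The third (25525743 to 25526247) had no H4K12la peak, with ENO1 at 10.9-fold and 11.7-fold and HDAC1 at 12.004-fold and 11.5-fold. All 3 lay over 1 Mb from ZNF254, the nearest protein-coding gene.

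On chromosome 7, beyond the zinc finger gene ZNF716, 2 more of the 10 strongest were found. Region chr7:60521663-60522559, 3048 kb from the gene, had ENO1 at 15.3-fold and 13.9-fold, HDAC1 at 15.4-fold and 14.2-fold, and H4K12la at 9.16-fold in replicate 1. Region chr7:59364466-59364840, 1891 kb away, had ENO1 at 15.2-fold and 12.3-fold and HDAC1 at 13.5-fold and 14.8-fold, without H4K12la. The last 2 away from genes were chr11:54236195-54236682, 366 kb from the olfactory receptor gene OR4C46, and chr1:122842560-122842994, 1379 kb from LINC02798. In the chromosome 11 region near OR4C46, ENO1 stood at 17.0-fold and 13.5-fold, HDAC1 at 15.8-fold and 19.04-fold, and H4K12la at 13.4-fold in replicate 1. In the chromosome 1 region, ENO1 stood at 15.1-fold and 11.1-fold, HDAC1 at 16.1-fold and 18.1-fold, and H4K12la at 15.1-fold in replicate 1. Both had their H4K12la peak in replicate 1 and none in replicate 2.

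Pseudogenes of mitochondrial genes are copies of mitochondrial DNA that sit in the nuclear genome. One lay within 1 kb of 6 regions (2.83%, 1.30 to 6.04). The list of 486 such pseudogenes was drawn up by symbol after the values were seen. Of the regions in all 6 lists 0.935% were that near one (0.364 to 2.38), an interval that overlaps, and of all merged regions 0.316%.

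Of the 6 regions beside mitochondrial pseudogenes, 5 are described, and they varied in strength. Region chr17:53105733-53106509 overlaps MTCO1P40, with ENO1 at 8.65-fold and 12.2-fold, HDAC1 at 14.6-fold and 17.4-fold, and H4K12la at 5.23-fold in replicate 2. Region chr7:142665734-142666885, 132 bp from MTRNR2L6, had ENO1 at 6.30-fold and 10.8-fold, HDAC1 at 10.9-fold and 13.1-fold, and H4K12la at 6.03-fold in replicate 2. Region chr5:94569479-94571004 overlaps MTCYBP35 inside KIAA0825, with ENO1 at 5.65-fold and 8.34-fold, HDAC1 at 7.82-fold and 6.97-fold, and no H4K12la. In these 3 regions ENO1 was higher in replicate 2 than in replicate 1. The remaining pair lie side by side near the start of chromosome 1: at MTND1P23 and MTND2P28 the 4 ENO1 and HDAC1 folds ran from 5.34 to 5.66, and at MTCO1P12 from 3.17 to 4.13. Both had H4K12la in replicate 2 only, at 5.35-fold and 4.28-fold.

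Few regions touched genes. A protein-coding gene was overlapped by 24 of the 212 (11.3%, 7.73 to 16.3), against 59.1% of all merged regions, 12.4% of regions in all 6 lists (9.59 to 15.8) and 55.2% of the HDAC1 regions. Any annotated gene was overlapped by 47 (22.2%), against 69.5% of all merged regions and 22.7% of those in all 6 lists. Of the 47, 24 overlapped a protein-coding gene, 10 a pseudogene, 10 a long noncoding RNA gene and 3 another entry. The pseudogene and long noncoding RNA classes each held 4.72% of the 212, against 5.61% and 4.21% of the regions in all 6 lists.

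Within 1 kb of an end of a protein-coding gene lay 4 regions (1.89%, 0.736 to 4.75), against 36.7% of all merged regions and 48.9% of the HDAC1 regions. The other sets with ENO1 were alike: 1.87% of regions in all 6 lists and 2.34% of ENO1 regions without reproducible HDAC1. Of the 4 regions, 1 lay past the 3′ end of WDR81, whose product acts in endosomal trafficking: chr17:1739200-1740660 starts 615 bp beyond the gene, on the plus strand. ENO1 there was 5.18-fold and 4.38-fold and HDAC1 3.84-fold and 3.48-fold, with no H4K12la. Region chr4:9216383-9217041 overlaps an end of USP17L11, of a tandem family of deubiquitinase genes, with ENO1 at 5.22-fold and 5.95-fold and HDAC1 at 5.49-fold and 5.37-fold, also without H4K12la. Counting start sites of all RefSeq windows, noncoding genes included, 4 regions lay within 1 kb of a start (1.89%), against 36.8% of all merged regions. In regions of all 6 lists the share was 2.80%, and in ENO1 regions without reproducible HDAC1 1.56%. The windows do not cover every gene.

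The other 2 gene-end regions had H4K12la in replicate 2 only. Region chr5:17527482-17528045 lies 624 bp upstream of TAF11L6, of a multicopy family related to a general transcription factor subunit, with ENO1 at 3.33-fold and 4.29-fold, HDAC1 at 3.13-fold and 3.41-fold and H4K12la at 4.90-fold. Region chr8:85736406-85737708 overlaps LOC101929601, with ENO1 at 3.03-fold and 3.73-fold, HDAC1 at 3.13-fold and 3.49-fold and H4K12la at 3.33-fold. Both were weaker in all 4 ENO1 and HDAC1 lists than the region at USP17L11. USP17L11 and TAF11L6 are members of multicopy families, so their values are uncertain where copies share reads.

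Strong regions inside genes were found in OPRL1, the nociceptin receptor gene, and ARHGEF18, a guanine exchange factor gene. In OPRL1 (chr20:64088585-64088954) ENO1 was 13.5-fold and 9.85-fold, HDAC1 10.9-fold and 10.03-fold, and H4K12la 9.69-fold in replicate 2. In ARHGEF18 (chr19:7450392-7451100) ENO1 was 8.28-fold and 8.25-fold, HDAC1 8.78-fold and 11.0-fold, and H4K12la 6.55-fold in replicate 2. Neither was near a start: the centre of the region lay 8.69 kb into OPRL1 and 102 kb into ARHGEF18, both counted from the RefSeq start site.

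Several genes held a region with no H4K12la peak in either replicate. In FAM135B (chr8:138206260-138206858) ENO1 was 6.67-fold and 6.65-fold and HDAC1 5.46-fold and 8.11-fold. In TCERG1L (chr10:131176391-131177063) ENO1 was 6.24-fold and 5.65-fold and HDAC1 5.53-fold and 5.24-fold. SHISA7 encodes an auxiliary subunit of receptors in nerve cells, and its region (chr19:55434431-55435396) had ENO1 at 8.39-fold and 7.23-fold and HDAC1 at 5.23-fold and 5.41-fold. The SHISA7 region thus stood higher in the ENO1 lists than the other 2, but not in those of HDAC1. In GRHL2, an epithelial transcription factor gene, a region (chr8:101623430-101624495) had ENO1 at 5.35-fold and 5.18-fold, HDAC1 at 5.47-fold and 5.35-fold and H4K12la at 6.84-fold in replicate 1. KCNN3, a potassium channel gene, had a region (chr1:154714027-154714650) with ENO1 at 7.71-fold and 5.09-fold, HDAC1 at 6.37-fold and 8.07-fold and H4K12la at 5.08-fold in replicate 2.

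The remaining overlapped genes, named after their values were seen, included TERT, the catalytic subunit of telomerase, MUC6, a gastric mucin gene, TCF3 and PRDM16, which encode transcription factors, and DYSF, a membrane repair gene of muscle. In TERT (chr5:1272682-1273635) the region lay 21.9 kb into the gene, with ENO1 at 5.79-fold and 4.31-fold, HDAC1 at 5.66-fold and 7.05-fold and H4K12la at 5.10-fold in replicate 2. It is not at the TERT promoter. Across the 26 regions that overlap a protein-coding gene or lie at its end, 11 had no H4K12la peak, 11 had it in replicate 2 only and 4 in replicate 1 only.

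All 212 regions fall into 3 nearly equal classes by H4K12la: 73 had no peak (34.4%, 28.4 to 41.1), 67 had it in replicate 1 only (31.6%, 25.7 to 38.1) and 72 in replicate 2 only (34.0%, 27.9 to 40.6). The ENO1 and HDAC1 folds of the 3 classes were close. Median ENO1 was 6.31-fold, 6.30-fold and 6.56-fold in replicate 1 and 5.98-fold, 5.98-fold and 5.99-fold in replicate 2, in that order. Median HDAC1 was 6.39-fold, 6.46-fold and 6.36-fold in replicate 1 and 6.22-fold, 6.16-fold and 6.57-fold in replicate 2. No class was the highest or the lowest in all 4 lists. Position varied more. Of the 67 with H4K12la in replicate 1 only, 60 lay over 50 kb from protein-coding genes (89.6%, 80.0 to 94.8) and 47 in its chromosome's longest gene-free stretch (70.1%). Of the 72 with it in replicate 2 only, 48 lay over 50 kb away (66.7%, 55.2 to 76.5) and 30 in such a stretch (41.7%). For the 73 without it the values were 58 (79.5%, 68.8 to 87.1) and 32 (43.8%). The replicate 1 list is the shorter of the H4K12la pair, and the part of list length in this difference was not tested. Neighbouring regions are not independent: 10 of the 67 lay in 1 cluster on chromosome 1. The intervals cover counting error only, and the part of clusters in this difference was not tested.

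Where 1 H4K12la list had a peak, that peak overlapped all 4 ENO1 and HDAC1 peaks in 134 of 139 regions. A peak enters a region only by overlap with another of its peaks, so this count is largely set by the merging. The single peaks ranked high within their lists, but they lie in regions already called in 4 other lists, which can set that rank. Their median was 5.74-fold in replicate 1 and 5.23-fold in replicate 2, above 89.3% and 85.2% of all peaks in those lists, whose medians were 4.01-fold and 4.04-fold. In ENO1 regions without reproducible HDAC1, the median H4K12la peak stood above 82.0% and 65.8% of those lists. In the HDAC1 regions it stood above 47.4% and 39.4%. At a −log10 q under 5 were 10 of 67 (14.9%) and 14 of 72 (19.4%), against 41.5% and 38.6% of all H4K12la peaks. Regions in all 6 lists had higher H4K12la medians, 6.91-fold and 6.79-fold, a difference that the rule itself can set.

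At the edge of the rule, folds run in both directions. Just inside, the 5 strongest single H4K12la peaks were those of chromosome 16 near CCNYL1B (15.2-fold), chromosome 1 near LINC02798 (15.1-fold), and 3 on chromosome 11 nearest OR4C46, at 14.2-fold (53193932 to 53194404), 13.4-fold and 13.1-fold (52465625 to 52466022). The 2 regions with ranges given had ENO1 at 12.05-fold and 9.84-fold, and at 10.4-fold and 11.5-fold, in replicates 1 and 2. Just outside, the 5 weakest regions in all 6 lists had H4K12la between 2.12-fold and 2.63-fold in both replicates. They lay on chromosome 21 (3 regions, 394 kb to 598 kb from LOC102723475), in TTC34 on chromosome 1, and 1397 kb from USP9Y on Y, where ENO1 stood at 5.50-fold and 4.85-fold. A strong single H4K12la peak thus sits inside and a weak peak in both lists outside.

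Within each list the peaks of the 212 regions were above the middle for HDAC1 and near it for ENO1. Median fold was 6.34 and 5.98 in ENO1 replicates 1 and 2, against list medians of 5.76 and 5.78, and 61.8% and 52.8% of the regions exceeded these. For HDAC1 the medians were 6.38 and 6.22 against list medians of 4.67 and 4.88, exceeded by 72.2% and 73.6%. The full range was 2.08 to 18.3 and 1.92 to 15.9 for ENO1 and 1.87 to 20.5 and 1.81 to 22.7 for HDAC1. Regions in all 6 lists had higher medians in all 4 lists, 7.91 and 7.08 for ENO1 and 7.84 and 8.08 for HDAC1. The ranges overlap, but those of the regions in all 6 lists reach higher: 33.2 and 26.2 for ENO1 and 29.8 and 33.5 for HDAC1. These values come from the calls that chose the regions and are a description.

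**Figure D4:**
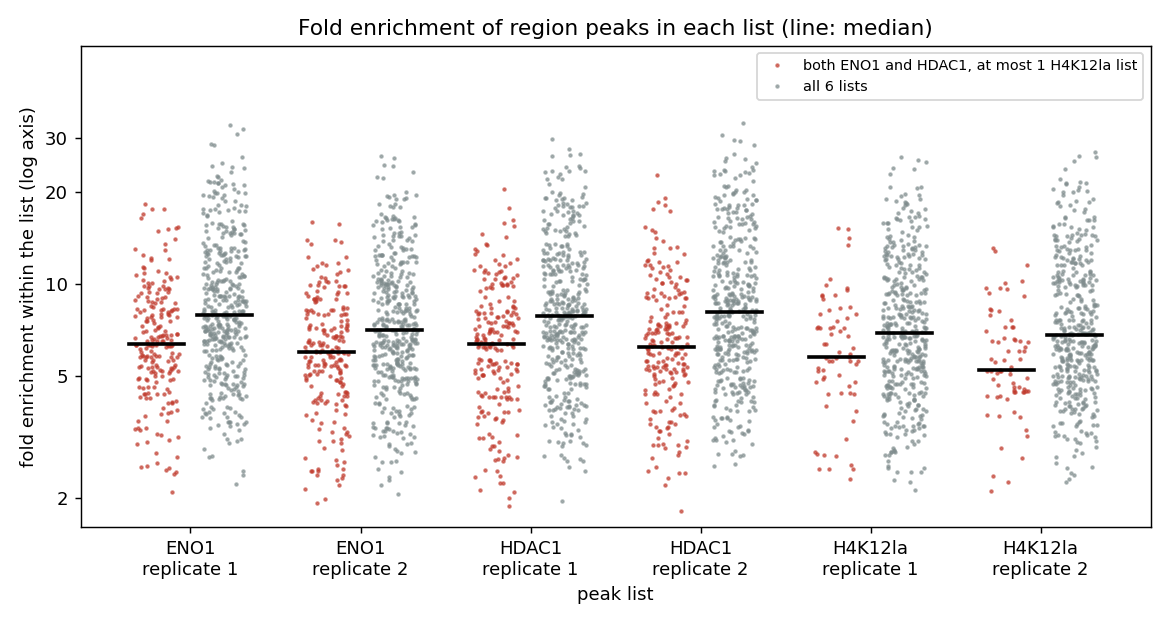
Fold enrichment of each region's peak within its list, on a log axis, for the 212 regions with at most 1 H4K12la list and the 428 in all 6 lists, with the median as a line. The median of the 212 lies below that of the 428 in every list, for example 6.34 against 7.91 in ENO1 replicate 1, with broad overlap.

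A region strong in one list was strong in the others. Across the 212 regions the Spearman correlation of fold was 0.837 between the ENO1 replicates and 0.887 between the HDAC1 replicates. Between ENO1 and HDAC1 lists it ran from 0.861 to 0.874, between the values of the ENO1 and the HDAC1 replicates. Across the 428 regions in all 6 lists the values were 0.923, 0.955 and 0.930 to 0.933. The points share libraries and genome positions, so these are descriptions across regions and not replicates.

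Peak summits of ENO1 and HDAC1 lay close together in most regions. The rule did not use summits, but merging joins only peaks that overlap. Close summits and shared bases are therefore largely set by the rule, and the values are a description. The median distance between summits was 29.5 bp between the ENO1 replicates, 32 bp between the HDAC1 replicates, and 26.5 bp to 33.5 bp between ENO1 and HDAC1 lists. The distances between targets and between replicates of a target thus covered much the same range. Within 50 bp lay 64.6% of summit pairs for ENO1, 60.8% for HDAC1 and 59.9% to 65.1% between them. All 4 summits together spanned a median of 70 bp (quartiles 30 and 276), against 50 bp in regions of all 6 lists (quartiles 21 and 162), and the best peaks of the 4 lists shared bases in 207 of 212 regions. The single H4K12la peaks had summits a median of 28.5 bp to 48 bp from those of ENO1 and HDAC1.

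**Figure D5:**
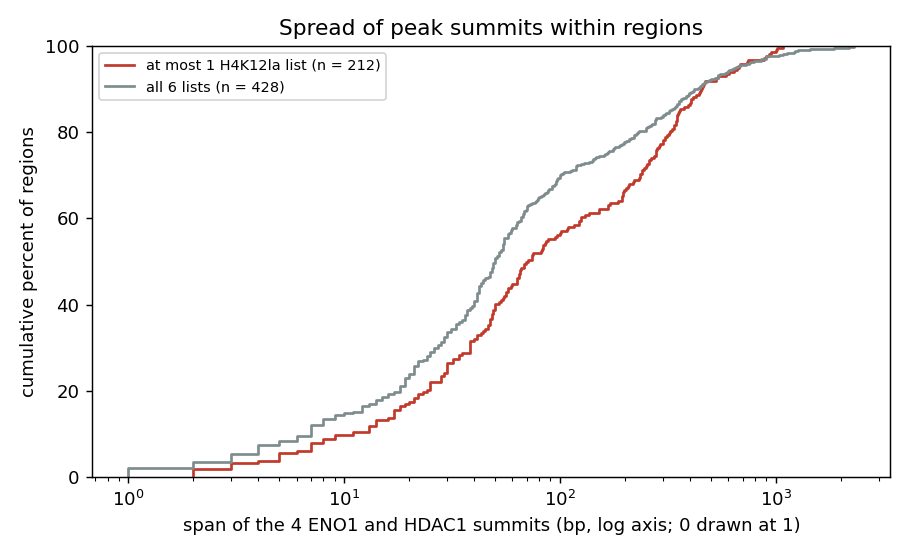
Cumulative percent of regions by the span in bp of the 4 ENO1 and HDAC1 summits, on a log axis. Of the 212 regions 120 had a span of at most 100 bp, as did 300 of the 428 regions in all 6 lists.

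Merged width had a median of 609 bp (quartiles 481 and 800), against 528 bp for ENO1 regions without reproducible HDAC1, 651.5 bp for the HDAC1 regions, 841 bp for regions in all 6 lists, which by rule merge the peaks of both H4K12la lists as well, and 540 bp for all merged regions. The widest, chr8:85826463-85828459, spans 1997 bp over REXO1L6P, a pseudogene of a multicopy family, with ENO1 at 4.37-fold and 5.38-fold, HDAC1 at 4.20-fold and 4.44-fold and H4K12la at 4.73-fold in replicate 2. The narrowest, chr21:43262468-43262815, spans 348 bp, 65.4 kb from LOC124905027, with ENO1 at 10.8-fold and 9.80-fold, HDAC1 at 10.1-fold and 11.3-fold and H4K12la at 9.66-fold in replicate 2. Narrow and wide regions thus both occur with H4K12la in 1 list.

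One pair of regions stands for a shared sequence. Region chrX:918392-919023, 259 kb from SHOX, and region Y 918401 to 919020 lie at nearly the same positions of the pseudoautosomal part that X and Y have in common, so they are not independent. On X ENO1 was 6.31-fold and 6.19-fold and HDAC1 9.48-fold and 6.22-fold, and on Y ENO1 was 8.23-fold and 6.26-fold and HDAC1 7.35-fold and 9.56-fold. Neither had an H4K12la peak. At the far end of Y, 8 regions (56682132 to 56834725) lay beyond the last protein-coding gene that the table gives for Y, CDY1. The table leaves out the pseudoautosomal genes at that end of Y, so no distance is given. They were among the weakest, with ENO1 medians of 3.37 and 2.52 and HDAC1 medians of 2.68 and 2.94, and 5 of the 8 had no H4K12la.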

How the data were processed

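CUT&Tag libraries of HepG2 cells for ENO1, HDAC1 and H4K12la, 2 replicates each, were grouped by title. The build was hg38, and MACS2, Bowtie2, deepTools and FastQC were used, per the submitters' processing notes. The settings of each tool, and any control, were not given in the sources used here. Each library came as its own file: the authors deposited 1 narrow peak list per library, so peaks were called per sample. Each deposited list gives the fold enrichment of a peak as a ratio within its library, the −log10 p and −log10 q, and a score derived from the q value. Coordinates are printed 1-based.

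From these lists, overlapping peaks on chromosomes 1 to 22, X and Y were merged (Python 3.11.15, pandas 2.3.3). Distances were taken to 19866 protein-coding genes of the RefSeq table of GRCh38 patch 14, without 718 entries of other sequences that carry a chromosome's name. Strand and start sites came from 35116 RefSeq promoter windows, which do not cover every gene. The outermost 5 Mb were counted from the first and last annotated gene. Shares have Wilson 95% intervals (SciPy 1.17.1), which cover counting error only. No p value was computed, because the regions were chosen from the same calls. The merging and distance steps were tested on simulated data. Regions, comparison sets and naming rule were chosen with earlier results of these data known. Named by rule were the 10 strongest regions by the lowest of their ENO1 and HDAC1 folds, regions at gene ends, the 10 strongest in protein-coding genes, the 5 largest clusters, the widest and narrowest region, and 5 on each side of the rule's edge; 1 region named by the rule is not reported here. Alternatives were a −log10 q of 5, stricter overlap, merging of nearby peaks, each library or the Y chromosome left out, no H4K12la peak allowed, other distances, all annotated genes, and the widest peak for each list.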

Additional observations from a re-analysis of the deposited data

Results flagged for a closer look

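Outside the 24 chromosomes, on sequences that the comparisons do not use, 25 of 371 merged regions also met the rule of ENO1 and HDAC1 in both replicates with at most 1 H4K12la list. They lay on 14 sequences, 2 of them on the mitochondrial genome, and 13 of the 25 had no H4K12la peak while 12 had it in 1 replicate. On the same sequences 117 regions had peaks in all 6 lists. With no control library analysed here, the part of sequence that any antibody recovers was not tested.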

How the results depend on the processing

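No paired analysis was possible because no result comes from a test. Of 162 values recomputed under 18 alternatives, 141 stayed within 1.5 times (for the count of regions) or within the 95% interval of the main value, and 21 did not. Without 1 library at a time the count of 212 ranged from 140 to 364, the share over 50 kb from protein-coding genes from 73.1% to 84.3%, the share without any H4K12la peak from 38.1% to 100% (100% by construction when an H4K12la list is left out), and the share in clusters from 61.4% to 78.0%. In the same way, median peak width ranged from 392.5 to 427 bp in ENO1 replicate 1, from 471.5 to 533 bp in HDAC1 replicate 1 and from 426.5 to 494 bp in HDAC1 replicate 2. With no H4K12la peak allowed the count was 73 and the share in clusters 47.9%. At 10 kb the share of distant regions was 86.3%, and with all annotated genes 63.7% were distant and 22.2% overlapped a gene. With neighbours joined within 100 kb, 47.6% were in clusters. With 1 region for each cluster, 60.2% were distant, 23.9% overlapped a protein-coding gene and 44.3% had no H4K12la peak. At a −log10 q of 5 or more 199 regions remained in number and 3.52% lay at gene ends. Depth was not known, so the absence of an H4K12la peak is not absence of signal.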

Other observations

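By gene family, the nearest protein-coding gene was a ZNF zinc finger gene for 32 of the 212 regions, at a median of 1734 kb, and an olfactory receptor gene for 14, at a median of 1260 kb. Among the 428 regions in all 6 lists these genes were nearest for 63 and 13. These counts come from few long stretches, and 1 region and none, respectively, lay within 50 kb of such a gene. FRG genes were nearest for 5 regions, POTE genes for 6 and beta-defensin genes (DEFB) for 3, and among the 428 regions in all 6 lists for 15, 4 and 9. Counting all annotated genes, 4 regions overlapped a DUX4-like gene of the tandem arrays near the ends of chromosomes 4 and 10. This overlap was not counted for other sets of regions. The chromosome 10 cluster with such regions, chr10:133674349-133751234, also held 6 regions in all 6 lists. The chromosome 4 cluster, chr4:189651666-190081369, held 3 of them. On chromosome 10, the region at DUX4L23 had ENO1 at 3.22-fold and 2.37-fold and HDAC1 at 3.81-fold and 3.31-fold, and that at DUX4L12 had ENO1 at 2.60-fold and 3.05-fold and HDAC1 at 2.23-fold and 2.75-fold. On chromosome 4, the regions at DUX4L7 and DUX4L4 had ENO1 at 4.78-fold and 4.17-fold, and at 4.87-fold and 4.23-fold, in replicates 1 and 2. The arrays hold near-identical copies, so which copy a read came from is uncertain. No region had an NPIP, NBPF, GOLGA, FAM90A, TBC1D3, ANKRD or KRTAP gene as its nearest protein-coding gene. Among the 428 regions in all 6 lists, NPIP genes were nearest for 2 and NBPF, GOLGA and ANKRD genes for 1 each. FAM90A, TBC1D3 and KRTAP genes were nearest for none of the 428 either.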
